A study of Mus musculus with 15 samples.

Results

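Tardbp, the mouse gene that encodes TDP-43, was followed across 15 RNA-seq libraries of CD8+ T cells, both as a gene and as its separate transcripts. It was picked by its name as 1 gene of the 55536 in the gene count matrix that matched the GENCODE M21 annotation, and all 30 transcripts annotated to it were found in the transcript count matrix. TDP-43 is a nuclear protein that binds UG-rich RNA through a pair of RNA recognition motifs and controls the splicing and polyadenylation of many transcripts. It also limits its own amount, because it binds the 3′ region of its own mRNA and shifts splicing and polyadenylation there towards forms that give less protein. The glycine-rich C-terminal domain, which carries most of the disease mutations known in motor neuron disease and the segment that aggregates, is encoded in the last coding exon, and splicing within that exon yields shorter proteins that lack the domain.

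All cells came from OT-1 Tg C57BL/6J mice, in which a rearranged transgenic T cell receptor recognises the ovalbumin peptide SIINFEKL. The study's methods describe these donors as deficient in the recombinase that rearranges receptor genes. The 5 Naive libraries were made from cells of such mice that were not transferred. The 5 Ag libraries were made from cells transferred into C57BL6/J recipients that were given the peptide with a control rat antibody, and the 5 Ag+Costim libraries from recipients that were given the peptide with agonist antibodies against 2 costimulatory receptors, OX40 and 41BB. Per the labels, transferred cells were collected after 4 days from spleen and lymph nodes and sorted, so Naive differs from the other groups in the transfer as well as in the antigen. The recipients kept their own T cells, and only the sort separated donor from host. Ages were not given by group. Replicates 1, 2 and 5 of each group were recorded as female and replicates 3 and 4 as male.

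Total counts ranged from 4865952 in Ag 3 to 25280667 in Naive 3, with a median of 14967616, and Tardbp received between 556 and 3347 of them per library. Lane 2 carried every Ag library with Ag+Costim 1 to 3, and lane 3 carried every Naive library with Ag+Costim 4 and 5, so Ag and Naive shared no lane. The 6 CD8+ T cell markers, among them Cd8a, Cd8b1 and Trac, summed to between 3926 and 7573 CPM (counts scaled by TMM-adjusted library size, in the usual CPM unit) in every library, and none of them was at 0. Cd4 reached at most 4.79 CPM. The median of the sums was 6656 CPM for Naive, 5965 for the Ag libraries and 4565 for Ag+Costim, while that of 5 myeloid markers was 32.5 (range 10.9 to 175), 64.1 (58.9 to 128) and 108 (81.4 to 149) CPM in the same order. Ag 3 stood apart, with Hbb-bs, a haemoglobin gene, at 346 CPM against at most 40.6 elsewhere and the lowest CD8+ T cell sum. Naive 5 had the highest myeloid sum, 175 CPM, and the lowest CD8+ T cell sum of its group, 4699 CPM. The part of other cells in the Tardbp values was not tested. In bulk libraries, fewer cells of a type and less RNA per cell cannot be told apart.

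Tardbp lies on chromosome 4 of GRCm38, at chr4:148612382-148627019 on the minus strand (ENSMUSG00000041459.15). Of its 30 transcripts, 15 are annotated as protein coding, 10 as targets of nonsense-mediated decay, the pathway that destroys mRNAs whose stop codon lies too early, 1 as a retained intron and 4 as processed transcripts. Only Tardbp-202 (ENSMUST00000084125.9, 7477 bases) has the longest reading frame, of 414 codons, and it is called the full-length form here. The other transcripts with a complete reading frame and an appreciable share remove an intron from inside the last coding exon. The sequences around these splice sites are shown because they are what separates the forms, and they were read from the GENCODE M21 transcripts, 5′ to 3′ on the gene's strand. The full-length form runs through each of 3 donor sites, whose last exonic bases are 148618674, 148618665 and 148618647. In the 5 spliced sequences the capitals mark the bases joined after the donor.
Tardbp-204, spliced from 148618674 to 148617705: gtggaagatttggtgTTCATCTCATTTCAA
Tardbp-230, spliced from 148618674 to 148617825: gtggaagatttggtgGAAAATCTCCATTTG
Tardbp-209, Tardbp-223 and Tardbp-201, spliced from 148618665 to 148617705: ttggtggtaatccagTTCATCTCATTTCAA
Tardbp-206 and Tardbp-205, spliced from 148618665 to 148617635: ttggtggtaatccagGAATACTTCTGTCTA
Tardbp-210 and Tardbp-203, spliced from 148618647 to 148617705: gctttgggaatcaggTTCATCTCATTTCAA

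Each spliced form keeps the part of the frame that encodes the RNA recognition motifs and exchanges the end. Tardbp-204 shares its first 277 codons with the full-length form and then has 18 codons of its own in place of 137. Tardbp-230 uses the same donor and the acceptor that lies nearest, has 8 codons of its own, and is annotated as a target of nonsense-mediated decay. Tardbp-209 shares 280 codons and ends after 18 others, Tardbp-206 shares 280 and ends after 22, and Tardbp-210 shares 286 and ends after 18. The introns removed are 968, 848, 959, 1029 and 941 bases long, in that order. Tardbp-202, Tardbp-206, Tardbp-209 and Tardbp-210 run to the far 3′ end of the gene at 148612382, while Tardbp-204 stops at 148616726 and Tardbp-230 at 148616725.

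**Figure D1:**
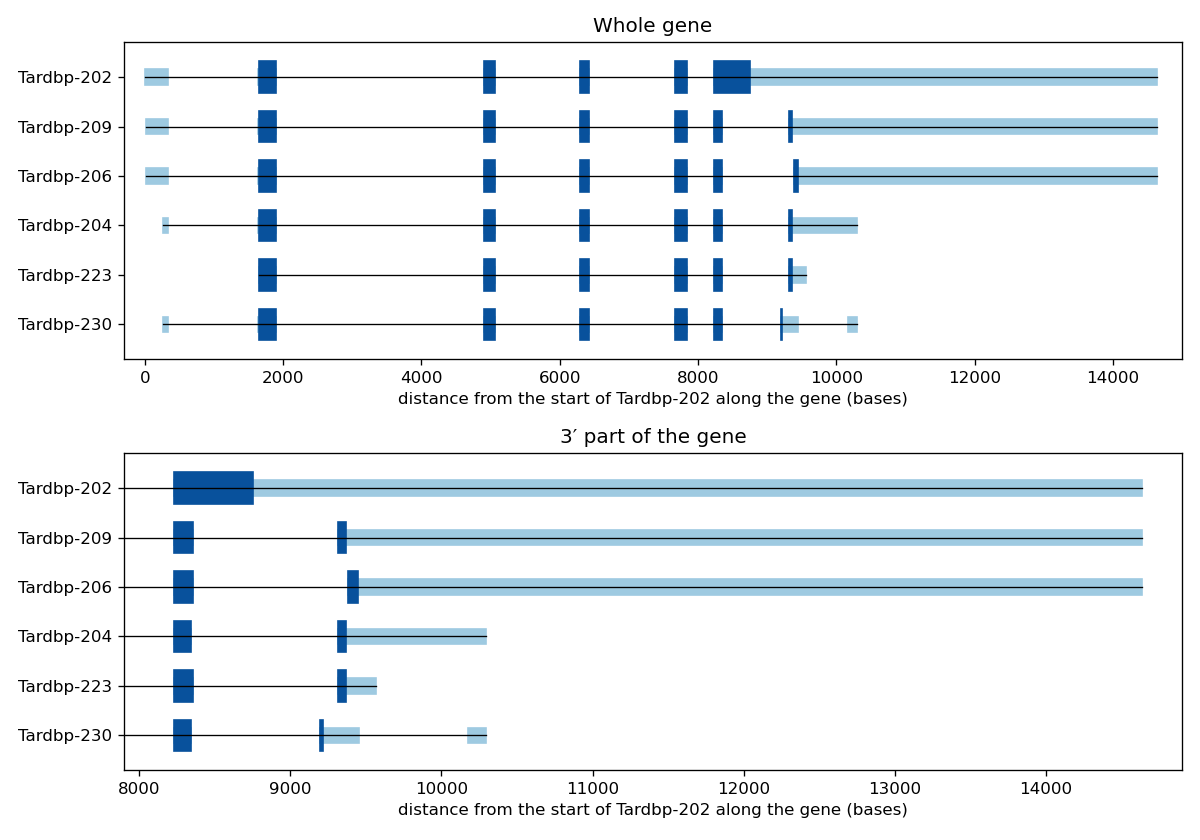
Map of the 6 Tardbp transcripts with a mean share of at least 0.05 in any group, drawn against the distance in bases from the start of Tardbp-202, over the whole gene and over its 3′ part. Tall boxes are coding and low boxes untranslated exon; a reader should see that the last coding exon is whole in Tardbp-202 alone, and that Tardbp-202, Tardbp-209 and Tardbp-206 have the long 3′ end.

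The first question was whether the amount of Tardbp RNA differed between the groups. Tardbp was expressed in every library, at a mean above that of 85.2% of the 9402 protein-coding genes with at least 5 CPM. In Naive it had 147, 151, 125, 163 and 177 CPM in replicates 1 to 5. In Ag it had 109, 164, 121, 104 and 134 CPM. In Ag+Costim it had 153, 160.04, 143, 181 and 168 CPM. The Ag values were thus the lowest as a group, but Ag 2 lay inside the range of both other groups, while Naive and Ag+Costim covered much the same range. Group means were 153 ± 19.5 CPM for Naive, 126 ± 23.9 for the Ag libraries and 161 ± 14.6 for Ag+Costim (SD, n = 5 each).

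In the edgeR quasi-likelihood test over 17366 genes, Tardbp did not pass a false discovery rate of 0.05 in any comparison. From Ag to Ag+Costim the log2 fold change was 0.35 (SE 0.13), with an adjusted p of 0.122. From Naive to Ag it was -0.27 (SE 0.13, adjusted p = 0.188) and from Naive to Ag+Costim 0.08 (SE 0.13, adjusted p = 0.650). These comparisons with Naive moved with the lane and with single libraries. With lane as a term, edgeR gave -0.07 (SE 0.24, adjusted p = 0.901) for Ag against Naive, 0.27 (SE 0.15, adjusted p = 0.438) for Ag+Costim against Ag and 0.19 (SE 0.18, adjusted p = 0.401) for Ag+Costim against Naive. On lane 3 alone Ag+Costim against Naive was 0.20 (SE 0.15, adjusted p = 0.308). Without Ag 3 and Naive 5 together, Ag against Naive was -0.15 (SE 0.15, adjusted p = 0.463) and Ag+Costim against Naive 0.22 (SE 0.14, adjusted p = 0.183). The exact two-sided permutation test of the CPM gave p = 0.0397 for Ag+Costim against Ag, p = 0.0952 for Ag against Naive and p = 0.468 for Ag+Costim against Naive (n = 5 per group, smallest p possible 0.00794). After Benjamini-Hochberg adjustment over the 18 exact tests made on Tardbp these became 0.200, 0.286 and 0.681. The labels give no relation between replicates beyond their being separate samples, so these p-values measure the spread between samples.

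The Ag+Costim against Ag comparison depended on the tool and on Ag 2. DESeq2 gave a log2 fold change of 0.37 with an adjusted p of 0.0435, and limma voom with sample quality weights gave 0.53 with an adjusted p of 0.00101. DESeq2 called 19.3% of the genes it tested, and 2.77% of those tested were called higher in Ag+Costim, while voom called 9979 of 17366, against 6 genes, or 0.0346%, for edgeR. DESeq2 tested 28025 genes, including some that edgeR's filter on low counts removed. Its shares, here and below, are thus over a wider set. Without Ag 2 the edgeR log2 fold change was 0.58, with an adjusted p of 0.0295. On lane 2 alone, with 5 Ag and 3 Ag+Costim libraries, it was 0.28 (adjusted p = 0.634). Without Ag 3 it was 0.34 (adjusted p = 0.185). Tardbp was among the genes the study chose partly for a higher level in Ag+Costim in these same libraries, so its direction there is not independent evidence.

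The level of Tardbp also depended on whether transcript length was taken into account. CPM counts a long form more heavily than a short one, and dividing each transcript's counts by its length and then scaling every library to the same sum (TPM, computed here from the transcript counts after the CPM had been seen) gave 93.7 ± 18.0 for Naive, 81.7 ± 22.4 for the Ag libraries and 126 ± 15.4 for Ag+Costim (SD, n = 5). By TPM the Ag+Costim libraries ran from 111 to 152, and 4 of the 5 Ag libraries from 62.2 to 78.5, with Ag 2 at 120. Ag+Costim exceeded Naive by 32.3 TPM on average, where the CPM differed by 8.22. The exact permutation test on TPM gave p = 0.0159 against Ag and p = 0.0317 against Naive, both 0.167 after adjustment.

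**Figure D2:**
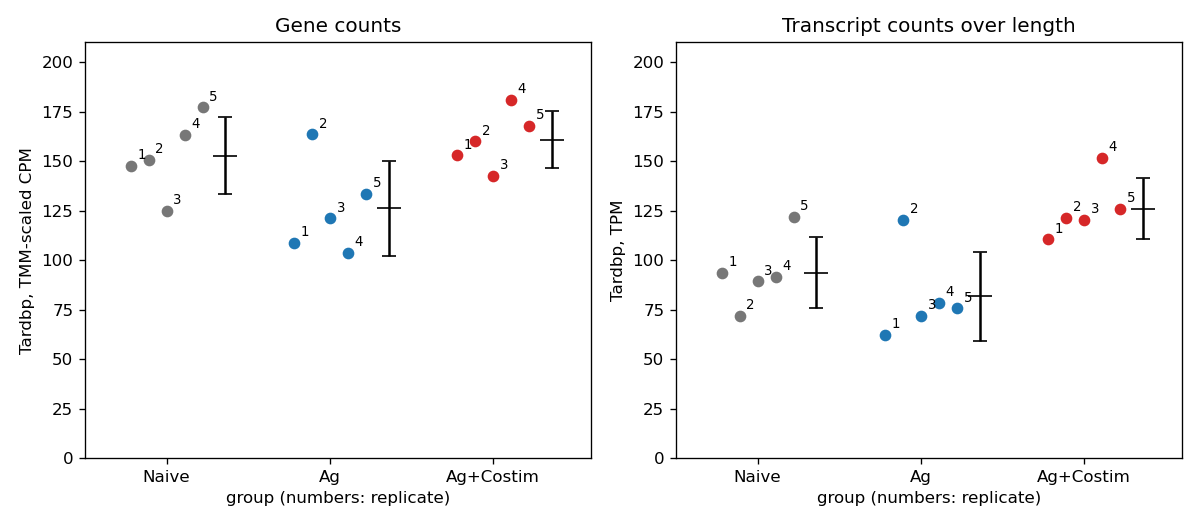
Tardbp by library as TMM-scaled CPM and as TPM, with replicate numbers beside the points and the mean ± SD of each group in black. Ag+Costim lies between 143 and 181 CPM and between 111 and 152 TPM, and Ag 2, at 164 CPM and 120 TPM, lies among the Ag+Costim libraries.

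The second question was which transcripts made up these counts. Tardbp-202 and Tardbp-204 held the largest shares in each group, and 6 transcripts had a mean share of at least 0.05 of the Tardbp counts in some group and held 0.898 of all Tardbp counts together. Another 14 had some counts, none with a group mean above 0.0282 and none above 0.101 in a single library, and 10 had no count in any library. Shares are StringTie's estimates from 50-base reads, which mostly fall in exons that several transcripts share, and a value of 0 for a form can be a failed estimate rather than a missing RNA.

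The full-length Tardbp-202 made up 0.446, 0.389, 0.201, 0.429 and 0.320 of Tardbp counts in Naive 1 to 5. In Ag its share was 0.420, 0.195, 0.311, 0.282 and 0.359. In Ag+Costim it was 0.273, 0.192, 0.128, 0.210 and 0.198. Most Ag+Costim libraries lay below most others, with Naive 3 and Ag 2 as low as Ag+Costim. Within a library, 95% Wilson intervals were 0.0272 to 0.0767 wide, so counting error was small beside the spread between replicates. The intervals cover counting error only, since reads that carry no molecular identifier can be copies of 1 molecule.

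The mean full-length share was 0.357 ± 0.0997 for Naive, 0.313 ± 0.0841 for the Ag libraries and 0.200 ± 0.0517 for Ag+Costim (SD, n = 5). The difference was -0.157 from Naive to Ag+Costim, with an exact two-sided permutation p of 0.0238 (0.200 after adjustment). From Ag to Ag+Costim it was -0.113 (exact permutation p = 0.0397, 0.200 after adjustment), and from Naive to Ag it was -0.0435 (exact permutation p = 0.460, 0.681 after adjustment). None of the 3 therefore held after adjustment over the 18 tests. With counts divided by length before the share was taken, the full-length form made up 0.131 ± 0.0477, 0.0968 ± 0.0404 and 0.0508 ± 0.0156 of the length-scaled Tardbp counts in the same order.

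Tardbp-204, the shorter coding form with a nearby 3′ end, made up 0.208, 0.221, 0.298, 0.404 and 0.434 of the counts in Naive 1 to 5. In Ag it made up 0.426, 0.379, 0.367, 0.312 and 0.352, and in Ag+Costim 0.347, 0.447, 0.388, 0.284 and 0.476. The groups overlapped throughout. Its group means were 0.313 ± 0.103, 0.367 ± 0.0416 and 0.388 ± 0.0769 (SD, n = 5).

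Tardbp-230, the form marked for nonsense-mediated decay, varied from 0 to 0.284 between libraries. In Naive its shares were 0.196, 0, 0.125, 0 and 0, and in Ag 0, 0.284, 0, 0.161 and 0.133. In Ag+Costim it was estimated in all 5 libraries, at 0.231, 0.113, 0.246, 0.136 and 0.138. It was thus listed at 0 in 3 Naive and 2 Ag libraries and in none of Ag+Costim. Where Tardbp-230 was present in Naive and Ag, its share reached that of Ag+Costim, and the ranges overlapped in both comparisons.

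Tardbp-209 combines the splice from 148618665 to 148617705 with the long 3′ end. Its share was 0.0908, 0.126, 0.0687, 0.128 and 0.0877 in Naive 1 to 5. In Ag+Costim it was 0.0294, 0.0467, 0.0232, 0.00968 and 0.0393, each below the lowest Naive value. In Ag it was 0.0602, 0.0198, 0.126, 0.0400 and 0.00984, which overlapped both. Of the 28794 transcripts with a mean share of at least 0.05 in genes with more than 1 transcript, 5.31% were lower in all Ag+Costim than in all Naive libraries. In a test of its own counts, Tardbp-209 had a log2 fold change of -1.56 (SE 0.54) from Naive to Ag+Costim, with an edgeR adjusted p of 0.0615.

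Tardbp-206 and Tardbp-223 were minor forms. Tardbp-206, which also has the long 3′ end, ranged from 0 to 0.175 in Naive, from 0 to 0.0593 in Ag and from 0 to 0.0552 in Ag+Costim, and its high values came from Naive 2 at 0.175 and Naive 3 at 0.138. Tardbp-223, of 1096 bases and the same splice as Tardbp-209, ranged from 0.00568 to 0.0461 in Naive, from 0.00547 to 0.124 in Ag and from 0.00563 to 0.122 in Ag+Costim.

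**Figure D3:**
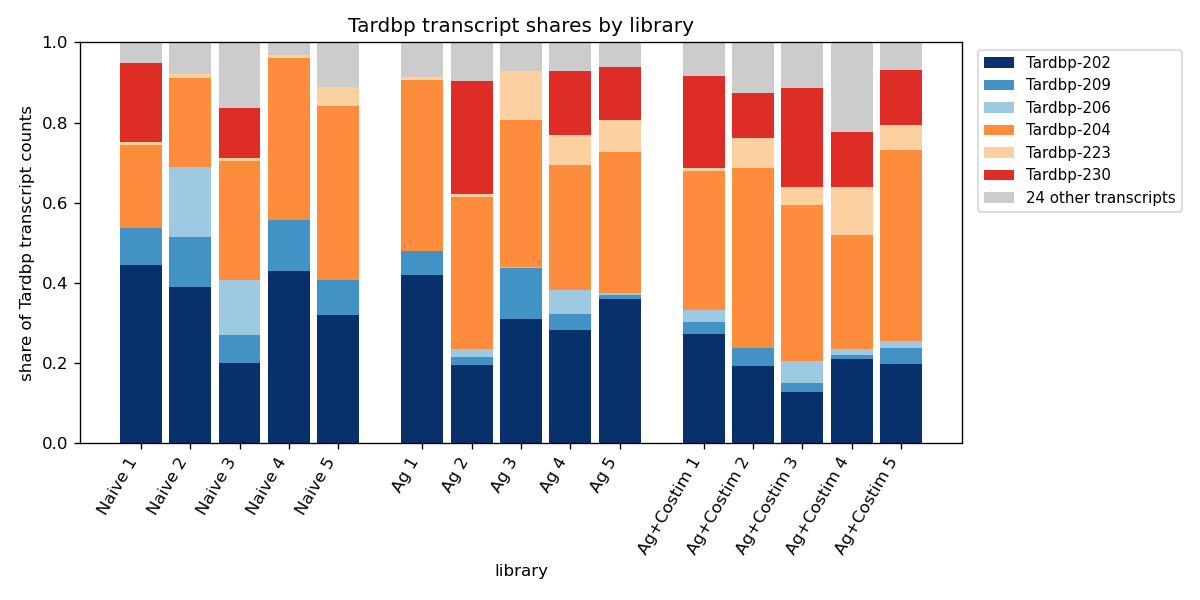
Stacked share of Tardbp transcript counts per library for the 6 leading transcripts and the 24 other transcripts. The blue parts (Tardbp-202, Tardbp-209 and Tardbp-206) have the long 3′ end and are smaller in the Ag+Costim libraries and in Ag 2, and the red part (Tardbp-230) is listed at 0 in 3 Naive and 2 Ag libraries.

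Summed by annotated class, the forms marked for nonsense-mediated decay made up 0.242, 0.0366, 0.194, 0.0268 and 0.0851 of Tardbp counts in Naive. In Ag they made up 0.0325, 0.341, 0.0594, 0.189 and 0.161, and in Ag+Costim 0.299, 0.160, 0.325, 0.271 and 0.169. The Ag+Costim values all lay above 3 of the 5 Naive values and above 2 of the 5 Ag values, and Ag 2 had the highest of all. The means were 0.117 ± 0.0965, 0.157 ± 0.122 and 0.245 ± 0.0758 (SD, n = 5). Ag+Costim exceeded Naive by 0.128 (exact permutation p = 0.0556, 0.200 after adjustment) and Ag by 0.0882 (exact permutation p = 0.230, 0.518 after adjustment), and Ag exceeded Naive by 0.0395 (exact permutation p = 0.619, 0.743 after adjustment). Without Ag 2 the last difference became -0.00665.

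Protein-coding forms mirrored this, at 0.882 ± 0.0962, 0.842 ± 0.121 and 0.754 ± 0.0759 (SD, n = 5). Coding and decay forms together held nearly all counts, so the mirror is arithmetic and not a second result. The differences were -0.127 for Ag+Costim against Naive (exact permutation p = 0.0556, 0.200 after adjustment), -0.0874 against Ag (exact permutation p = 0.230, 0.518 after adjustment) and -0.0401 for Ag against Naive (exact permutation p = 0.611, 0.743 after adjustment). Protein-coding forms other than the full-length one had mean shares of 0.525 ± 0.122, 0.528 ± 0.0641 and 0.554 ± 0.0901, and single libraries ran from 0.311 to 0.647. The retained intron form, Tardbp-225, had between 1 and 5 counts per library, and processed transcripts had 1 count in all, in Ag 2. For both classes the exact permutation test gave p from 0.389 to 1, and at such counts a difference was not detectable.

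Grouping the transcripts by where they end was done after their shares had been seen and is given without a test. The 4 transcripts with the long 3′ end together made up 0.537, 0.690, 0.483, 0.557 and 0.408 of Tardbp counts in Naive 1 to 5. In Ag they made up 0.523, 0.256, 0.439, 0.403 and 0.382. In Ag+Costim they made up 0.333, 0.285, 0.221, 0.244 and 0.273. All 5 Ag+Costim values lay below all 5 Naive values, and below all Ag values other than that of Ag 2. Every Naive library was on lane 3, so the same order for Ag+Costim 4 and 5 on that lane follows from this. It is no separate check, and the part of the lane was not tested. Single transcripts were lower in this way in 5.31% of cases, as given for Tardbp-209. The means were 0.535 ± 0.104, 0.401 ± 0.0971 and 0.271 ± 0.0427 (SD, n = 5). Without Tardbp-202 the other 3 transcripts with the long 3′ end made up 0.178 ± 0.105, 0.0872 ± 0.0443 and 0.0713 ± 0.0246, and these groups overlapped in every comparison, as did those of Tardbp-202 alone.

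**Figure D4:**
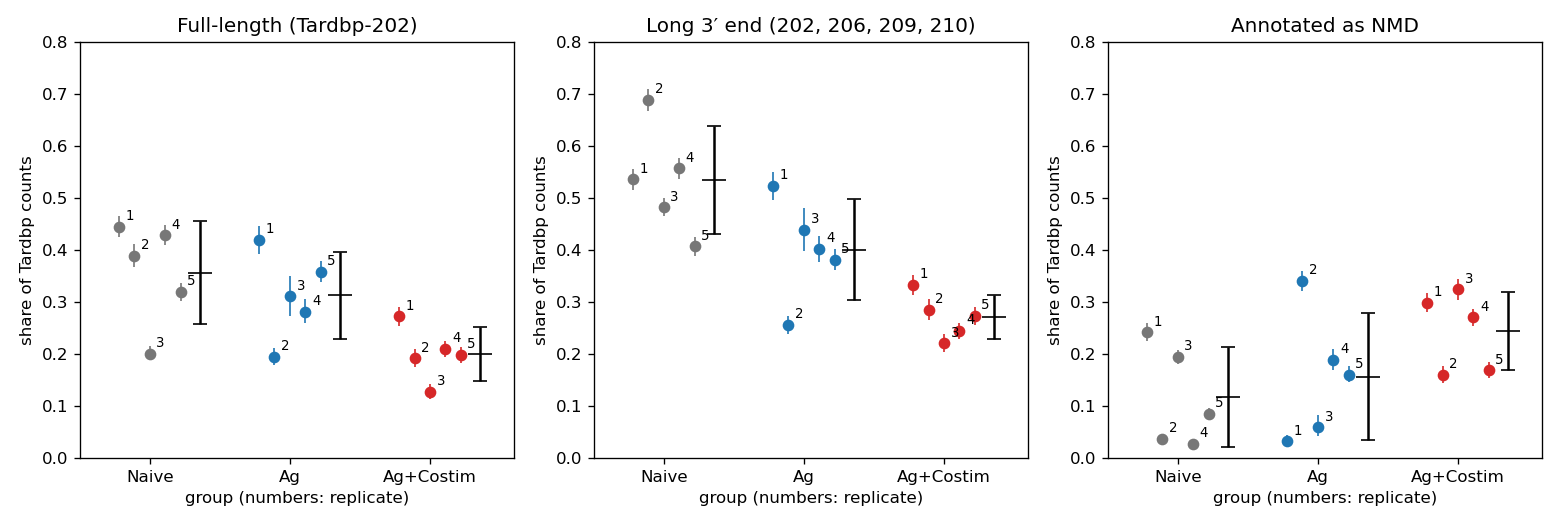
Share of Tardbp counts per library held by the full-length form, by the 4 transcripts with the long 3′ end and by the transcripts annotated as targets of nonsense-mediated decay (NMD), with 95% Wilson intervals for each library and the mean ± SD of each group in black. The long 3′ end lies between 0.408 and 0.690 in Naive and between 0.221 and 0.333 in Ag+Costim.

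The transcripts were also grouped by their donor within the last coding exon, as a description with no test. Transcripts with the donor at 148618674, which include Tardbp-204 and Tardbp-230, made up 0.385 ± 0.0887 of the counts for Naive, 0.487 ± 0.109 for the Ag libraries and 0.572 ± 0.0904 for Ag+Costim (SD, n = 5). Those with the donor at 148618665 made up 0.212 ± 0.0876, 0.156 ± 0.0750 and 0.159 ± 0.0692. Those with the donor at 148618647 made up 0.0233 ± 0.0343, 0.0247 ± 0.0175 and 0.0373 ± 0.0294. The ranges of the groups overlapped for all 3 donors.

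Multiplying the gene's CPM by the full-length share gives the level of the 2 parts of the Tardbp counts side by side, as a description. The full-length form was at 65.7, 58.6, 25.1, 70.1 and 56.7 CPM in Naive, at 45.6, 31.97, 37.7, 29.3 and 48.0 CPM in Ag and at 41.7, 30.7, 18.2, 38.0 and 33.3 CPM in Ag+Costim. All other forms together were at 81.8 to 121 CPM in Naive, 63.1 to 132 in Ag and 111 to 143 in Ag+Costim. Means of the full-length form were thus 55.2, 38.5 and 32.4 CPM, and means of the remainder 97.5, 87.7 and 129 CPM.

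**Figure D5:**
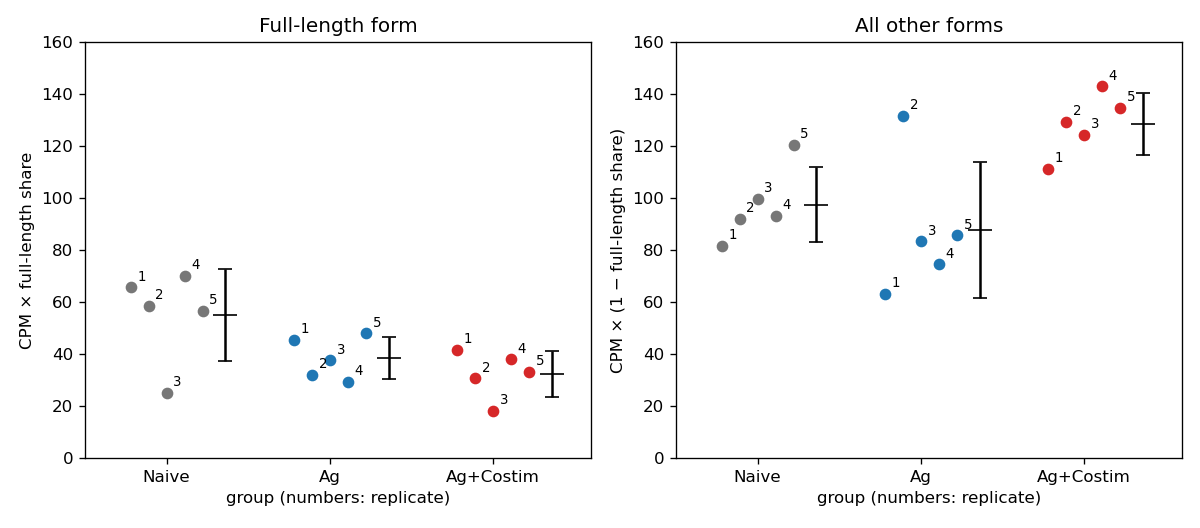
Tardbp CPM split by library into the full-length form and all other forms, with the mean ± SD of each group in black. The other forms lie between 111 and 143 CPM in Ag+Costim, and 4 of the 5 Naive libraries lie above every Ag+Costim library for the full-length form.

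A test across 7501 genes with several transcripts (edgeR diffSpliceDGE on 25932 transcripts) asked whether any transcript of Tardbp changed its usage relative to the rest of the gene, and 13 Tardbp transcripts passed the filter on low counts. Tardbp was not called in any comparison, with adjusted gene-level p of 1.00 for Ag against Naive, 1.00 for Ag+Costim against Ag and 0.256 for Ag+Costim against Naive. The test called 0.533%, 0.907% and 0.973% of genes in these comparisons. The lowest p belonged to Tardbp-203, a short form with the donor at 148618647, whose usage was higher by 2.77 on the log2 scale in Ag+Costim than in Naive (adjusted p = 0.116). It had 0, 0, 16, 0 and 0 counts in Naive 1 to 5, and 0, 49, 24, 82 and 20 in Ag+Costim, so it made up at most 0.0294 of Tardbp counts. limma's diffSplice on the same counts called Tardbp for Ag+Costim against Naive, with an adjusted gene-level p of 0.0130. Without Naive 3 the edgeR adjusted p fell to 0.0234 for that comparison and to 0.0411 for Ag against Naive. A call also required a change of 0.1 in the mean share of a passing transcript, and it was made in neither comparison.

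When each transcript's counts were tested alone over 35372 transcripts, no Tardbp transcript passed edgeR's adjusted 0.05 in any comparison, where the test called 0.0424% for Ag against Naive, 0% for Ag+Costim against Ag and 15.4% for Ag+Costim against Naive. For Tardbp-202 the log2 fold change from Naive to Ag+Costim was -0.60 (SE 0.28, edgeR adjusted p = 0.140). For Tardbp-204 it was 0.50 (SE 0.29, edgeR adjusted p = 0.230). At an unadjusted p under 0.05 stood Tardbp-209 in Ag against Naive, Tardbp-201 and Tardbp-226 in Ag+Costim against Ag, and Tardbp-203 and Tardbp-209 in Ag+Costim against Naive.

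The far 3′ end of Tardbp overlaps Masp2, a gene of the complement system on the opposite strand, and 1817 of the 7477 bases of Tardbp-202, or 24.3%, lie within exons of Masp2. The library kit does not mark strand, so reads there cannot be assigned to a strand. Masp2 itself was counted at 0 in all libraries other than Ag 3, which had 5 counts. The nearest tested neighbour past the 3′ end, Srm, which encodes spermidine synthase, had a log2 fold change of 0.60 (SE 0.35, adjusted p = 0.283) from Ag to Ag+Costim, and on the other side Casz1, a zinc finger factor, had -1.24 (SE 0.60, adjusted p = 0.198) in edgeR's test.

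The 5 protein-coding genes whose profile over the 15 libraries was most like that of Tardbp, by the root mean square difference of centred log2(CPM + 1), were Hnrnph1 at 0.122, Rps6kb1 at 0.130, Cisd2 at 0.134, Mtfr1 at 0.140 and Rbm28 at 0.142. A gene with the same level in every library would stand at 0.237, and the median over 9402 genes was 0.437. Hnrnph1, a splicing factor that binds G-rich RNA, had 165 ± 23.0 CPM for Naive, 156 ± 33.9 for the Ag libraries and 199.6 ± 20.9 for Ag+Costim (SD, n = 5). All 5 had their lowest mean in Ag and their highest in Ag+Costim, as Tardbp did. Picking them by likeness to Tardbp in these libraries favours that order, so it is not a separate result. None of the 5 passed edgeR's adjusted 0.05 in any of the 3 comparisons.

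Genes that work with TDP-43 were described by lists. Of 10 RNA-binding relatives, 0 were called by edgeR between Ag and Ag+Costim, where 0.0346% of all genes were, although 4 had an unadjusted p under 0.05, beside 26.8% of all genes. DESeq2 called 3 higher and 1 lower, where it called 19.3% of the genes it tested, and 2.77% higher. Between Naive and Ag+Costim, where edgeR called 44.7% of all genes (21.0% higher and 23.6% lower), 3 of the 10 were higher and 3 lower, with a list median of -0.08 beside -0.08 over all genes. The called members with the largest log2 fold changes were the stress granule component Atxn2 at -1.63 (SE 0.39, edgeR adjusted p = 0.00866), Hnrnpa1 at 1.22 (SE 0.37, adjusted p = 0.0206), Hnrnpa2b1 at 0.88 (SE 0.23, adjusted p = 0.0120) and Tia1 at -0.62 (SE 0.19, adjusted p = 0.0200). Tardbp, at 0.08, lay nearer to 0 than any of these.

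Among 12 nuclear transport genes, which encode receptors and the GTPase Ran that move proteins such as TDP-43 through the nuclear pore, all 12 had a positive log2 fold change from Ag to Ag+Costim, as Tardbp had, where 42.1% of all genes had one, with a median of 0.50 beside -0.10 over all genes. Of these edgeR called 0, 6 had an unadjusted p under 0.05 (26.8% of all genes) and DESeq2 called 5 (19.3% of the 28025 genes it tested). These 5 were all higher in Ag+Costim, as were 2.77% of the genes DESeq2 tested. That set includes genes removed by edgeR's filter on low counts, which all 12 passed, so the share is not from a like set. Against Naive, where 21.0% of all genes were called higher and 23.6% lower, 4 of the 12 were higher in Ag+Costim, Kpna2 at 2.03, Ran at 1.38, Cse1l at 1.11 and Kpnb1 at 0.57 on the log2 scale, and 0 lower. Of 9 tested enzymes that phosphorylate, dephosphorylate, ubiquitylate or clear TDP-43, Csnk1e, a casein kinase, fell by 1.28 on the log2 scale from Naive to Ag (edgeR adjusted p = 0.00274), where 6.71% of all genes were called, and 0 were called from Ag to Ag+Costim, with 4 at an unadjusted p under 0.05 (26.8% of all genes) and 3 by DESeq2 (19.3%). Against Naive, 3 were higher and 2 lower in Ag+Costim, a share near the 44.7% called over all genes. The 4 called with the largest changes were Ttbk2 at -2.16, Csnk1e at -1.41, Cdc7 at 1.13 and Ube2e3 at 1.11 on the log2 scale. Ttbk2 was at a low level, with a mean of 2.47 CPM in Naive and 0.546 in Ag+Costim, and its SE was 0.79.

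Of 7 tested RNAs that depend on TDP-43 in other systems, 0 were called by edgeR from Ag to Ag+Costim (0.0346% of all genes). An unadjusted p under 0.05 was reached by 3 (26.8% of all genes), and DESeq2 called 0 (19.3%). From Naive to Ag+Costim, where edgeR called 44.7% of all genes, Hdac6 was higher by 0.89 and Synj2bp lower at -0.34 on the log2 scale. Ikzf1, Stat4 and Fyb, whose exons the study examined after loss of Tardbp in other libraries, were described with Ikzf4, a relative of Ikzf1 that was added here. Ikzf1, a lymphoid transcription factor, fell by 0.73 on the log2 scale from Naive to Ag (edgeR adjusted p = 0.0202), where 6.71% of all genes were called. From Naive to Ag+Costim, where edgeR called 21.0% of all genes higher and 23.6% lower, Stat4 was higher at 0.27 and Fyb and Ikzf4 were lower at -0.78 and -3.29. Ikzf4 was at a low level, with a mean of 3.34 CPM in Naive and 0.334 in Ag+Costim, and its SE was 0.95. From Ag to Ag+Costim edgeR called 0 of the 4 (0.0346% of all genes), with 2 at an unadjusted p under 0.05 (26.8%) and 2 by DESeq2 (19.3%).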

How the data were processed

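Gene and transcript tables deposited by the authors hold StringTie estimated counts, as whole numbers without normalisation. Per the labels, reads were aligned with HISAT2 2.1.0 to mm10 and assembled with StringTie 2.1.0; which annotation release and read length went into the counting is not given in the sources used here. Identifiers were matched to GENCODE M21, which left 55536 of 81881 gene entries; 26248 entries named by a number held 0.0818% of counts and were left out, as were 97 others without counts. In the deposited FPKM table, whose FPKM values come from StringTie, 7 Tardbp entries carry no transcript name and the columns of Ag 1 and Naive 5 are identical, so it entered no test. The deposited quality table gave the count of sequenced reads and percent aligned, which entered no test.

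edgeR 4.0.16 under R 4.3.3 tested the gene counts (filterByExpr, TMM, quasi-likelihood, all 15 libraries, Benjamini-Hochberg, calls under 0.05). Usage was tested with diffSpliceDGE, a call also requiring a share change of 0.1. Levels and class shares were tested by exact permutation in scipy 1.17.1. Alternatives used DESeq2 1.42.0 and limma 3.58.1. The edgeR tests were tried on simulated data with the same spread for every gene. That spread was below the common one of the gene counts (biological coefficient of variation 0.431). The trial therefore does not show how many true changes the tests find here. Transcripts with a mean share of at least 0.05 in any group are given per library, genes in lists where called, at most 4 per list, or the 5 nearest profiles. Tardbp and the lists were chosen with earlier results of these data known. Some sequences and 1 marker gene are not reported here.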

Additional observations from a re-analysis of the deposited data

Results flagged for a closer look

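A library was far from the other 4 of its group in 3 of 37 group values of Tardbp examined, where chance alone flags about 1 in 20. Ag 2 had 120 TPM of Tardbp, above the other Ag libraries at 62.2 to 78.5. Naive 5 had a Tardbp-223 share of 0.0461, above the other Naive libraries at 0.00568 to 0.0105. The share of processed transcripts was 0.000421 in Ag 2, which rests on 1 count, and 0 in the other Ag libraries.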

How the results depend on the processing

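Of the alternatives run on the Tardbp results, 312 kept direction and side of the threshold, 5 passed it where the value as reported did not, and 3 reversed. For transcript usage the side was judged by whether Tardbp was called, which also required the change in share. The log2 fold change of Tardbp was -0.45 with voom for Ag against Naive, and 0.37 with DESeq2, 0.53 with voom and 0.58 without Ag 2 for Ag+Costim against Ag, all past the threshold. With library totals alone, which shift the median of all genes from -0.08 to -0.23, the log2 fold change of Ag+Costim against Naive became -0.0784. limma's diffSplice gave an adjusted gene-level usage p of 0.0130 for that comparison. Without Ag 2, the differences of Ag against Naive became 0.00582 for the protein-coding share and -0.00665 for the decay share. The cause was not tested in these cases. Leaving out single libraries gave -0.40 to -0.21, 0.30 to 0.58 and 0.03 to 0.15 for the 3 log2 fold changes (Ag against Naive, Ag+Costim against Ag, Ag+Costim against Naive), and adjusted gene-level usage p of 0.0411 to 1, 1 to 1 and 0.0234 to 0.679. The differences ranged over -35.9 to -20.4, 29.2 to 44.1 and 1.25 to 14.4 CPM, over -0.0824 to -0.0140, -0.143 to -0.0868 and -0.196 to -0.135 for the full-length share, over -0.0713 to 0.00582, -0.133 to -0.0567 and -0.159 to -0.105 for the protein-coding share, and over -0.00665 to 0.0708, 0.0572 to 0.134 and 0.105 to 0.159 for the decay share.

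Counts of genes called by edgeR moved more. For Ag against Naive, 1165 became 2634 with DESeq2, 3478 with voom, 208 without the filter, 0 with lane as a term, 6 with the 10 libraries compared, 3945 without Ag 3 and Naive 5, and 255 to 3871 without single libraries. For Ag+Costim against Ag, 6 became 5421 with DESeq2, 9979 with voom, 3 without the filter, 2 with sex as a term, 0 with lane as a term, with the replicate block, with the 10 libraries compared or on lane 2 alone, 989 without Ag 3 and Naive 5, and 0 to 3573 without single libraries. For Ag+Costim against Naive, 7755 became 13645 with voom, 4158 without the filter, 943 with lane as a term, and 3892 to 9164 without single libraries. Genes with a usage call went from 40 to 129 with limma, 237 without the filter, 20 with the block, 4 with the 10 libraries compared and 47 to 81 without single libraries for Ag against Naive, from 68 to 44, 216, 21, 10 and 56 to 125 for Ag+Costim against Ag, and from 73 to 632 with limma, 285 without the filter and 75 to 163 without single libraries for Ag+Costim against Naive.

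The replicate numbers were not shown to pair the libraries. With the replicate block the log2 fold changes of Tardbp were -0.28 (edgeR adjusted p = 0.166), 0.36 (0.164) and 0.08 (0.615), and the block changed no Tardbp call. A paired exact permutation test of 5 pairs cannot go below 0.0625. Shares of summed FPKM were not run, since the entries of that table carry no transcript name. Depth limits each library's share to the Wilson widths of at most 0.0822, and the error of assigning 50-base reads between overlapping transcripts was not measured.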

Other observations

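The FPKM table gave Tardbp, summed over its 7 entries, 33.1 to 54.3 FPKM in Naive 1 to 4, 33.1 to 46.1 in Ag 2 to 5 and 40.1 to 57.7 in Ag+Costim. The identical columns of Ag 1 and Naive 5 both held 68.3 FPKM. Across 12829 genes, that column's centred log2 values correlated with the counts of Naive 5 at 0.756 and with those of Ag 1 at -0.163, a description over genes, which are not replicates.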
